A study of Mus musculus with 4 samples.

Results

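The enzymes described here are 10 listed hepatic genes of amino acid breakdown, taken by symbol from the 25239 genes in the deposited count tables: Hal, Uroc1, Sds, Sdsl, Amt, Agxt, Gpt, Tat, Hpd and Tdo2. All 10 were found, and all 10 had enough counts to be tested. Liver RNA came from C57BL/6 mice aged 6 to 8 weeks, with no genetic change named in the labels. The 2 control libraries are from mice given normal saline. The 2 extract libraries are from mice given an extract of Gynura segetum into the stomach at 30 g/kg per day, from a concentrate of 2 g/mL, and both treatments lasted 3 weeks. Gynura segetum is a plant whose pyrrolizidine alkaloids are turned by liver cytochrome P450 enzymes into pyrroles that injure the liver, and the labels call the extract libraries the PAs group. Whether each library is a separate mouse, the sex of the mice, the hour of collection and the time since feeding are not in the labels. The p-values therefore cover the spread among these 4 libraries, and that spread may be technical.

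The liver breaks down most amino acids that reach it from the gut and from muscle. Their nitrogen is passed by transaminases to glutamate and from there to urea, and their carbon goes to pyruvate, to the citric acid cycle or to 1-carbon units carried by folate. Several of these enzymes are made mainly by hepatocytes near the portal vein, and genes such as Tat are textbook targets of glucocorticoids and glucagon in fasting. These enzymes are hepatocyte products, and in whole liver fewer cells of a type and less RNA per cell cannot be told apart.

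After the extract, 4 of the 10 enzymes fell: Hal, which opens histidine breakdown, Sds, which turns serine into pyruvate, Amt, a subunit of the glycine cleavage system, and Agxt, which removes glyoxylate. Gpt, the cytosolic alanine transaminase, rose. The other 5 did not pass the test. By edgeR's quasi-likelihood test on 13963 genes, 3.63% were lower and 4.91% higher at an adjusted p under 0.05, where 40% of these enzymes were lower and 10% higher. In either direction the share over all genes was 8.54%. Because the enzymes were listed with earlier results of these data known, no test was made of that share. The median log2 fold change (extract minus control) was -0.72 over the 10 enzymes and -0.0047 over all genes tested. For all 10 enzymes the extract and control libraries did not overlap, 8 lower and 2 higher, where 54.4% of all genes tested did not overlap (26.7% lower and 27.6% higher). Counts of the 10 enzymes together made up 0.712% and 0.576% of all gene counts under saline, and 0.528% and 0.454% after the extract.

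**Figure D1:**
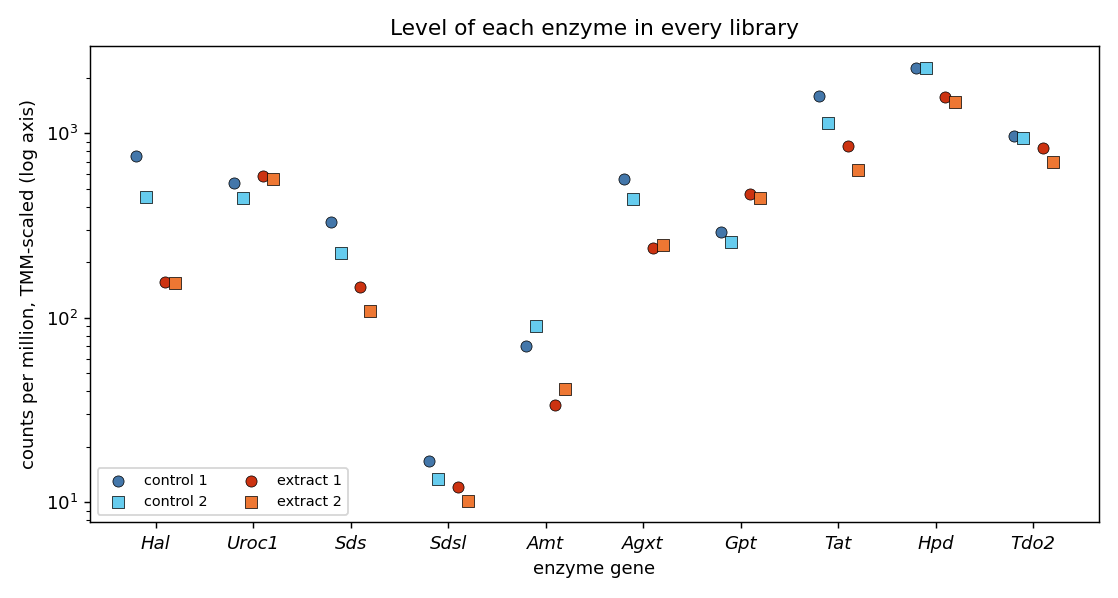
Level of each enzyme gene (x axis) in each of the 4 libraries, in CPM (log axis). Hal goes from 754.0 and 449.2 CPM in control to 156.8 and 154.1 CPM in extract libraries, while Gpt is higher in both extract libraries.

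The libraries held from 32215268 to 49711750 counts on genes, so 1 read is worth 0.0208 to 0.0337 CPM after TMM scaling, where CPM are counts scaled to a library of 1000000 and TMM is edgeR's scaling between libraries, and counting error is small for every enzyme here. The spread between libraries of a group is larger. The median absolute log2 difference between the 2 libraries of a group, over the 10 enzymes, was 0.34 in control and 0.17 in extract. With 1 library of a group left out, the spread in a fit comes from the other group alone. Without a control library that is the closer extract pair, so passes in such fits leave out the control spread. The control libraries also differed in markers of liver zones: the summed level of 11 pericentral markers was 7105 and 12272 CPM in control replicates 1 and 2, and that of 11 periportal markers was 12414 and 9183 CPM. In the extract libraries these sums were 6327 and 7430 CPM, and 10850 and 8758 CPM. On the periportal list, 3 of 11 genes (27.3%) were lower and 0 higher with edgeR, against 3.63% and 4.91% of all genes. At an unadjusted p under 0.05 there were 6 lower and 0 higher, with 6 and 0 by DESeq2 and 3 and 0 by limma-voom. Over all 13963 genes tested, DESeq2 called 919 lower and 1035 higher, and limma-voom 474 lower and 682 higher. The count over all genes at an unadjusted p is not given here. The median log2 fold change of the periportal list was -0.91, below that of the 10 enzymes, and for 8 of its 11 genes both extract libraries lay below both controls. Ctsc (cathepsin C, 3.99-fold lower) and Pigr (the receptor that carries IgA into bile, log2 fold change -0.91) are 2 of the periportal genes that fell, and Pigr was not past the threshold without extract replicate 1 (edgeR adjusted p = 0.129) or extract replicate 2 (0.177). The third periportal gene called lower was Sox9, which is also on the list of cholangiocyte markers. In which cells these 3 genes fell was not tested. On the pericentral list 0 of 11 genes were past the threshold with edgeR. There 9 of 11 had a log2 fold change below 0, with a median of -0.21. The group mean of the summed level went from 9688 to 6879 CPM for pericentral markers. For periportal markers it went from 10798 to 9804 CPM. The part of these zonal differences in the results below was not tested.

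Sequences just upstream of the start sites are shown for the members that fell and have an entry in the RefSeq promoter table (GRCm38.p6, the assembly also called mm10), so that the windows searched for motifs can be seen. The table holds 7 of the 10 enzymes, and Sds, Sdsl and Gpt are not among them. Each window is the 250 bases before the start site, 5′ to 3′ on the strand of the gene, and all 3 genes lie on the plus strand. The windows are chr10:93488518-93488767 for Hal, chr1:93134990-93135239 for Agxt and chr9:108296655-108296904 for Amt. Capitals mark matches to the motifs named below.
Hal: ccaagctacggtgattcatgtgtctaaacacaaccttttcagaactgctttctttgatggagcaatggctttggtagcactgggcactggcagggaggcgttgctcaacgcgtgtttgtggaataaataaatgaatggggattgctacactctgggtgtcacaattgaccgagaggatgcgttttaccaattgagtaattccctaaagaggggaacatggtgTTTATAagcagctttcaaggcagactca
Agxt: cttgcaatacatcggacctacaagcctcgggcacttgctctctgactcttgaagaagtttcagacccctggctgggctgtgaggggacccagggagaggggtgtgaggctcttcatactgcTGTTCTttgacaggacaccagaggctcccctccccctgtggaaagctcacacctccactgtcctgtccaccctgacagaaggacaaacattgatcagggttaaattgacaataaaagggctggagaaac
Amt: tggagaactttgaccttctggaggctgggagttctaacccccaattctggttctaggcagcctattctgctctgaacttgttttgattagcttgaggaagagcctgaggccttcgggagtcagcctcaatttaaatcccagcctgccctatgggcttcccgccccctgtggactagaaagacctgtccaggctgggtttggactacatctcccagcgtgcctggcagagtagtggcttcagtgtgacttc

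The motifs searched on both strands were the glucocorticoid element hexamer AGAACA, the full glucocorticoid element palindrome, the C/EBP palindrome TTGCGCAA, the D-box TTATGTAA, the E-box CACGTG, the cAMP element TGACGTCA, the HNF4 direct repeat and the TATA box TATAAA. The full palindrome contains the hexamer, so these matches can overlap. Hal has a TATA box match on the opposite strand that begins 28 bases before its start, and 12.4% of 32851 promoter windows of the same length hold this motif. Agxt has an AGAACA match on the opposite strand 129 bases before its start, and 16.1% of windows hold it. Amt has no match in this window. Among the 4 other enzymes in the table, Tdo2 has a TATA box match 229 bases before its start, and Uroc1, Tat and Hpd have no match. The Tat window, chr8:109990186-109990435, lies inside the gene span given for Tat below, so bases before the first base of that span were not searched. The Uroc1 window, chr6:90333039-90333288, runs past the first base of the span given for Uroc1. A match of letters is not a binding site, and no match says only that these letters are not in these windows.

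Histidine is broken down to glutamate in 4 steps, and the first and the third of their genes fell while the second and the fourth did not pass the test. Hal, histidine ammonia-lyase, on chromosome 10 (93488768 to 93516761, mm10), turns histidine into urocanate. Its level was 754.0 and 449.2 CPM in control and 156.8 and 154.1 CPM in extract libraries. The control libraries lay far apart and the extract libraries close together, with no overlap. The means were 601.6 ± 215.6 and 155.5 ± 1.88 CPM (SD, n = 2 libraries each), a 3.87-fold fall (a log2 fold change of -1.95 ± 0.26 SE; edgeR adjusted p = 0.00868). Hal was the enzyme with the largest fitted change of the 10, and it was past the threshold under all 14 alternatives, with log2 fold changes from -2.28 without control replicate 2 to -1.53 without control replicate 1.

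Uroc1, urocanate hydratase, which takes the product of Hal further, is on chromosome 6 (90333239 to 90364551). Its level was 537.0 and 445.5 CPM in control and 585.0 and 562.4 CPM in extract libraries. The extract libraries were slightly higher, by less than the test could call (a log2 fold change of 0.22 ± 0.16 SE; edgeR adjusted p = 0.455). Amdhd1, the imidazolonepropionase of the third step, was at 421.0 and 295.6 CPM in control and 129.5 and 134.7 CPM in extract libraries. It fell by 1.44 on the log2 scale (SE 0.20, edgeR adjusted p = 0.00868) and was past the threshold under all 14 alternatives. Ftcd, the formiminotransferase that hands the last carbon to folate, was at 432.0 and 413.3 CPM in control and 484.4 and 516.5 CPM in extract libraries (a log2 fold change of 0.24 ± 0.14 SE; edgeR adjusted p = 0.358). Per kilobase of exon, the ratio of Hal to Uroc1 was 0.879 and 0.631 in control libraries and 0.168 and 0.171 in extract libraries. An exact 2-sided permutation test of this ratio gave p = 0.333 (adjusted 0.555 over 5 ratios), which is the smallest value that 2 libraries against 2 allow.

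**Figure D2:**
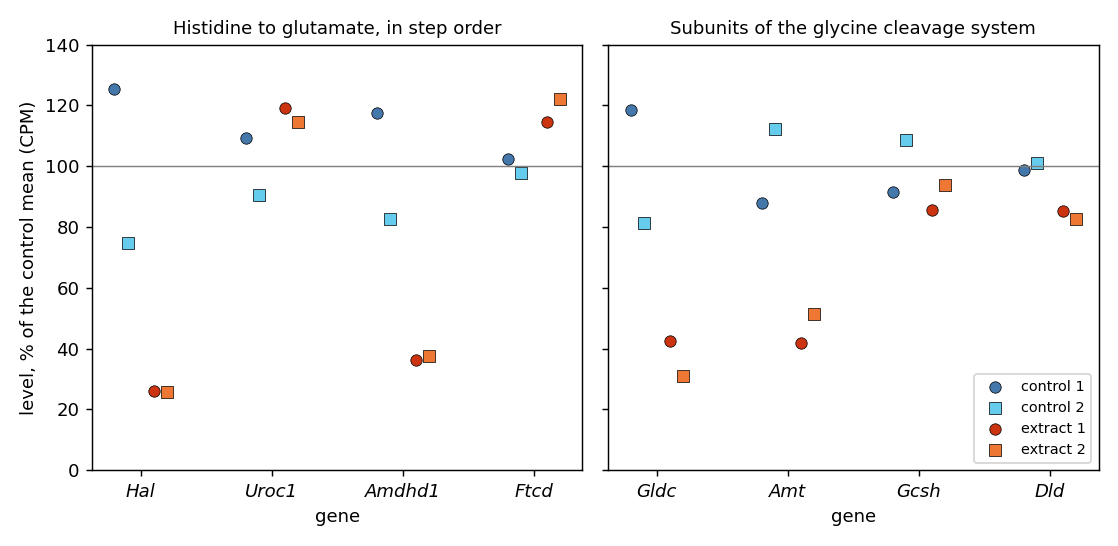
Level of each gene in each library as a percentage of its control mean (y axis, from CPM), for the 4 steps of histidine breakdown and the 4 subunits of the glycine cleavage system. Hal lies at 26.1% and 25.6% and Amdhd1 at 36.1% and 37.6% of the control mean in the extract libraries, while Uroc1 and Ftcd lie above 100%.

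The serine dehydratases, which take serine to pyruvate and ammonia, are neighbours on chromosome 5. Sds (120476547 to 120483932), the main hepatic form, was at 331.6 and 223.7 CPM in control and 146.6 and 108.3 CPM in extract libraries. Both extract libraries lay below both controls, with means of 277.6 ± 76.2 and 127.5 ± 27.1 CPM (SD, n = 2 libraries each), a 2.18-fold fall (a log2 fold change of -1.12 ± 0.24 SE; edgeR adjusted p = 0.0395). That call was close to the threshold. It was lost without extract replicate 2 (log2 fold change -0.94, edgeR adjusted p = 0.170) and when libraries were scaled by total counts (-0.96, 0.079). Sds shares 360 exonic bases with Plbd2 on the opposite strand, and the strand setting of the counting is not given, so reads there cannot be told apart. Of the stretches of 50 bases in Sds transcripts, 21.2% also occur in transcripts of overlapping genes.

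Sdsl, the serine dehydratase-like gene (120458193 to 120472825), was low, at 16.8 and 13.3 CPM in control and 12.1 and 10.2 CPM in extract libraries. Its libraries did not overlap either, but the difference did not pass (a log2 fold change of -0.43 ± 0.20 SE, edgeR adjusted p = 0.252). It was -0.25 without control replicate 1 and -0.58 without control replicate 2. The ratio of Sds to Sdsl per kilobase of exon was 17.5 and 14.8 in control and 10.7 and 9.36 in extract libraries (exact 2-sided permutation p = 0.333, adjusted 0.555). The ratio was lower in both extract libraries than in both controls. A test of 2 libraries against 2 cannot give a p below 0.333, so it cannot decide whether the gap changed.

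Glycine is split to carbon dioxide, ammonia and a folate-bound carbon by a complex of 4 proteins, and its P and T subunits fell. Amt, the aminomethyltransferase or T protein, lies on chromosome 9 (108296905 to 108302302). Its level was 70.4 and 89.9 CPM in control and 33.5 and 41.2 CPM in extract libraries. The groups did not overlap, and the means were 80.2 ± 13.8 and 37.4 ± 5.40 CPM (SD, n = 2 libraries each), a 2.14-fold fall (a log2 fold change of -1.10 ± 0.18 SE; edgeR adjusted p = 0.0153). Without extract replicate 1 it was -0.97 and not past the threshold (edgeR adjusted p = 0.120).

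Gldc, the glycine decarboxylase or P protein, was at 331.7 and 227.4 CPM in control and 119.3 and 86.4 CPM in extract libraries (a log2 fold change of -1.44 ± 0.24 SE; edgeR adjusted p = 0.0183). It was not past the threshold without extract replicate 2 (-1.25, 0.0616). Dld, the lipoamide dehydrogenase that other complexes share, was at 146.5 and 150.0 CPM in control and 126.5 and 122.6 CPM in extract libraries (a log2 fold change of -0.25, edgeR adjusted p = 0.304). Gcsh, the H protein, named after its values were seen, was at 92.0 and 109.3 CPM in control and 86.1 and 94.3 CPM in extract libraries (a log2 fold change of -0.16, edgeR adjusted p = 0.594), and its sign turned with scaling by total counts. The groups overlapped for Gcsh and not for the other 3 subunits. The ratio of Amt to Gldc ranged from 0.531 to 0.988 per kilobase of exon in control and from 0.703 to 1.19 in extract libraries, which overlap (exact 2-sided permutation p = 0.667, adjusted 0.667).

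Agxt, alanine-glyoxylate aminotransferase, moves an amino group from alanine to glyoxylate and makes glycine, and its loss in people leads to oxalate stones. It lies on chromosome 1 (93135240 to 93145421). Its level was 565.0 and 437.9 CPM in control and 238.0 and 247.6 CPM in extract libraries. The extract libraries were again close to each other and below both controls, with means of 501.4 ± 89.9 and 242.8 ± 6.83 CPM (SD, n = 2 libraries each), a 2.07-fold fall (a log2 fold change of -1.05 ± 0.17 SE; edgeR adjusted p = 0.0145). The call was lost with either extract library left out (edgeR adjusted p = 0.107 without replicate 1 and 0.0783 without replicate 2), where the log2 fold change stayed at -1.03 and -1.09. The other glyoxylate and hydroxyproline enzymes were 0 of 5 past the threshold in either direction with edgeR, DESeq2 or limma-voom, with 1 lower and 0 higher at an unadjusted p under 0.05. Among them, Agxt2, a mitochondrial alanine-glyoxylate aminotransferase, had a log2 fold change of -0.24 and Prodh2, hydroxyproline dehydrogenase, -0.44. Prodh2 was -0.51 without control replicate 1 and -0.35 without control replicate 2.

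Gpt, the cytosolic alanine transaminase whose activity in blood is a clinical measure of liver injury, was the enzyme that rose. It lies on chromosome 15 (76696726 to 76699675). Its level was 291.5 and 256.5 CPM in control and 468.1 and 445.1 CPM in extract libraries. Both extract libraries stood well above both controls, with means of 274.0 ± 24.7 and 456.6 ± 16.3 CPM (SD, n = 2 libraries each), a 1.67-fold rise (a log2 fold change of 0.74 ± 0.14 SE; edgeR adjusted p = 0.0274). Without extract replicate 1 it was 0.69 (edgeR adjusted p = 0.267) and without extract replicate 2 it was 0.75 (0.188), so the size held and the call did not. Gpt2, the mitochondrial alanine transaminase, was at 314.3 and 268.7 CPM in control and 377.9 and 336.4 CPM in extract libraries (a log2 fold change of 0.29 ± 0.15 SE; edgeR adjusted p = 0.316). The ratio of Gpt to Gpt2 per kilobase of exon was 1.78 and 1.83 in control and 2.38 and 2.54 in extract libraries (exact 2-sided permutation p = 0.333, adjusted 0.555). Got1, the cytosolic aspartate transaminase, had a log2 fold change of -0.46 and did not pass (edgeR adjusted p = 0.343). It was -0.16 without control replicate 1 and -0.71 without control replicate 2.

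**Figure D3:**
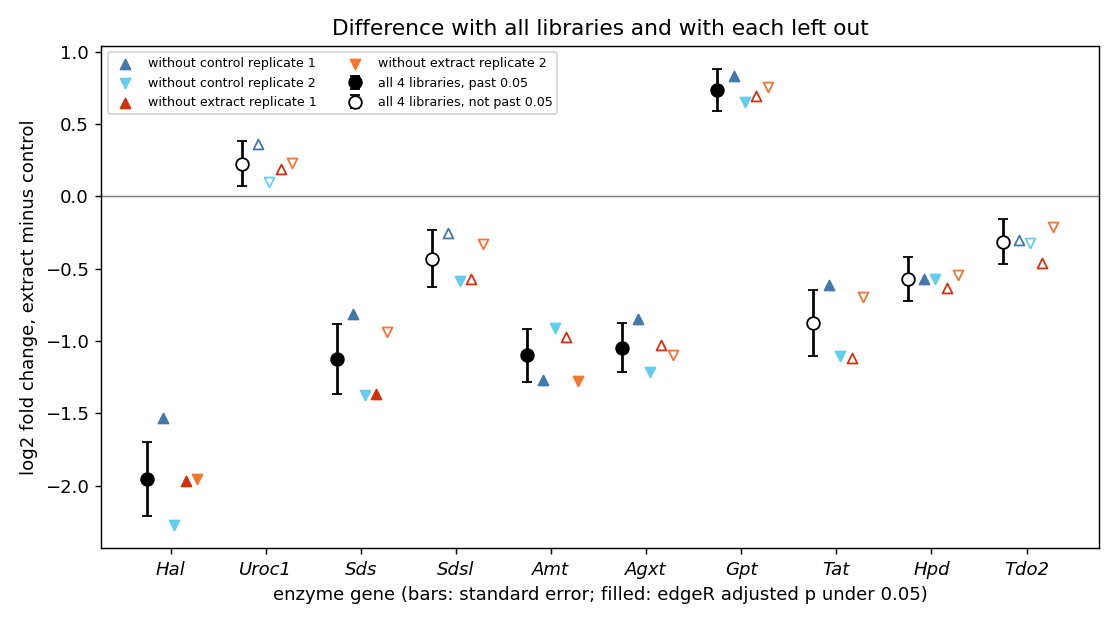
Log2 fold change (extract minus control) of each enzyme with all 4 libraries (circles, bars are standard errors) and with each library left out (triangles); filled symbols are past an edgeR adjusted p of 0.05. No enzyme changes sign, and Hal is the enzyme whose 5 symbols are all filled.

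Tyrosine breakdown starts with Tat and goes on with Hpd, and both were lower in the extract libraries without passing the threshold. Tat, tyrosine aminotransferase, on chromosome 8 (109986078 to 109999804), was at 1591 and 1131 CPM in control and 850.8 and 630.1 CPM in extract libraries. The groups did not overlap, yet each pair was wide, with means of 1361 ± 325.4 and 740.4 ± 156.1 CPM (SD, n = 2 libraries each) and a log2 fold change of -0.88 ± 0.23 SE (edgeR adjusted p = 0.0683). Hpd, hydroxyphenylpyruvate dioxygenase, on chromosome 5 (123171807 to 123182723), was at 2266 and 2260 CPM in control and 1577 and 1467 CPM in extract libraries (a log2 fold change of -0.57 ± 0.15 SE; edgeR adjusted p = 0.0657). Each of them passed under 5 of 14 alternatives, among them DESeq2's Wald test (adjusted p = 0.00255 for Tat and 0.0013 for Hpd). Of those 5, 2 were fits with a control library left out, whose spread comes from the extract pair alone. The log2 fold change of Tat was -0.61 without control replicate 1 and -1.10 without control replicate 2. That of Hpd was -0.57 in both fits. Hpd was 1.49-fold lower, while Gpt was called at a 1.67-fold rise in the same fit. The self-test on simulated counts recovered 32% of genes changed 2-fold and 0% of those changed 1.5-fold. Its genes were drawn at random from all tested genes, so these rates do not say why Hpd did not pass. Of 6 other genes of phenylalanine and tyrosine breakdown, 0 were past the threshold in either direction with edgeR, DESeq2 or limma-voom. At an unadjusted p under 0.05 there were also 0. Their median log2 fold change was -0.0039, with 2 above 0 and 4 below. Among them, Gstz1, the isomerase that acts late in tyrosine breakdown, had a log2 fold change of -0.20 (edgeR adjusted p = 0.477).

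Tdo2, tryptophan dioxygenase, the opening enzyme of the kynurenine pathway, lies on chromosome 3 (81958412 to 81975728). Its level was 959.4 and 940.9 CPM in control and 833.1 and 694.9 CPM in extract libraries. The extract libraries were lower by a small step that did not pass (a log2 fold change of -0.31 ± 0.16 SE; edgeR adjusted p = 0.291, from 0.191 to 0.870 over 14 alternatives). Among 10 other genes of this pathway 0 were past the threshold with edgeR and limma-voom, 1 was lower with DESeq2, and 2 were lower and 0 higher at an unadjusted p under 0.05. The lowest were Aadat, which transaminates kynurenine (log2 fold change -0.56, edgeR adjusted p = 0.0643), and Afmid, the formamidase of the second step (-0.49, 0.124). Aadat passed with DESeq2 (adjusted p = 0.0184), and was -0.62 without control replicate 1 and -0.50 without control replicate 2. Afmid was -0.30 without control replicate 1 and -0.66 without control replicate 2.

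Per kilobase of exon, the order of the 10 enzymes changed between the groups. In control libraries mean CPM per kilobase was 1063 for Hpd, 565.8 for Tat, 295.5 for Agxt, 244.8 for Tdo2, 163.9 for Sds, 141.5 for Uroc1, 108.4 for Hal, 93.2 for Gpt, 32.9 for Amt and 10.1 for Sdsl. The ranges of Sds and Uroc1, of Uroc1 and Hal, and of Hal and Gpt overlapped between neighbours, and those of the other neighbours did not. In extract libraries the order was Hpd at 715.4, Tat at 307.9, Tdo2 at 196.9, Uroc1 at 165.2, Gpt at 155.3, Agxt at 143.1, Sds at 75.2, Hal at 28.0, Amt at 15.3 and Sdsl at 7.47, with no overlap between neighbours. Agxt thus went from the third to the sixth place and Gpt from the eighth to the fifth.

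In the wider set of amino acid breakdown, most genes did not pass the test. Of 75 other catabolic genes on 9 lists, 72 were tested, and 4 fell and 0 rose with edgeR, or 5.56% lower against 3.63% of all genes. At an unadjusted p under 0.05 there were 14 lower and 3 higher, with 8 and 0 past the threshold by DESeq2 and 4 and 0 by limma-voom. Their median log2 fold change was -0.11. Besides Amdhd1 and Gldc, the genes that fell were Ppm1k, the phosphatase that activates the branched-chain ketoacid dehydrogenase (99.4 and 94.0 CPM in control, 27.1 and 25.4 CPM in extract; a log2 fold change of -1.88 ± 0.14 SE; edgeR adjusted p = 0.000798), and Hykk, hydroxylysine kinase (96.8 and 81.1 CPM against 28.6 and 31.0 CPM; -1.58, SE 0.15, 0.00254). Both kept their call under all 14 alternatives. On the branched-chain list 1 of 21 genes (4.76%) fell and 0 rose with edgeR, against 3.63% lower over all genes. A log2 fold change below 0 was found for 19 of 21 (median -0.24), against 7043 of all 13963 genes. On that list 6 genes were lower and 1 higher at an unadjusted p under 0.05. DESeq2 called 2 of 21 lower, against 919 of 13963 over all genes, and 0 higher. Limma-voom called 1 lower, against 474 of 13963, and 0 higher. Gls2, the liver glutaminase, went from 815.3 and 431.2 CPM to 268.2 and 257.7 CPM and did not pass (a log2 fold change of -1.24 ± 0.30 SE; edgeR adjusted p = 0.0611). Gls2 passed with DESeq2 (adjusted p = 0.000223), and the control libraries set its size: -0.71 without control replicate 1 and -1.63 without control replicate 2. The count of genes that fell in the wider set was 13 with control replicate 1 left out and 12 with the other control left out, against 4 and 3 when extract replicate 1 or 2 was left out.

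**Figure D4:**
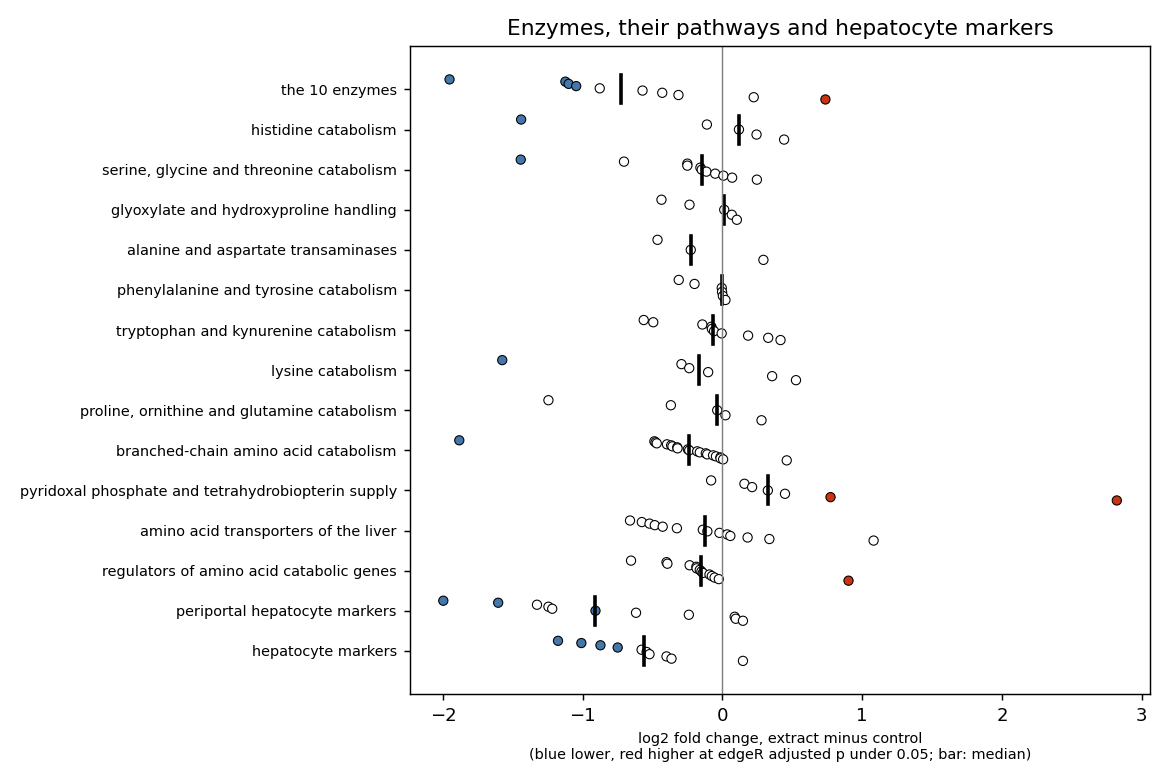
Log2 fold change (x axis, extract minus control) of every tested gene on each list, one point per gene, with the list median as a bar; blue genes fell and red genes rose at an edgeR adjusted p under 0.05. The 10 enzymes have a median of -0.72, the periportal markers -0.91, the hepatocyte markers -0.56, and the catabolic lists lie between -0.24 and 0.12.

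Among genes that supply the cofactors of these enzymes, both calls were increases. The 7 genes are for pyridoxal phosphate, the cofactor of the transaminases and of Sds and Gldc, and for tetrahydrobiopterin. The latter is a cofactor of aromatic amino acid hydroxylases. With edgeR 2 of 7 (28.6%) rose and 0 fell, against 4.91% higher over all genes. A log2 fold change above 0 was found for 6 of 7 (median 0.32), against 6920 of all 13963 genes. DESeq2 called 3 higher and 0 lower and limma-voom 2 and 0, and at an unadjusted p under 0.05 there were 3 and 0. Pdxk, the pyridoxal kinase that makes the cofactor, went from 56.3 and 52.3 CPM to 104.3 and 81.4 CPM (a log2 fold change of 0.77 ± 0.16 SE; edgeR adjusted p = 0.0353). Pdxp, the phosphatase that takes the phosphate off again, went from 0.292 and 0.236 CPM to 2.25 and 1.55 CPM (2.82, SE 0.56, 0.0282). Both calls were lost with either extract library left out (edgeR adjusted p = 0.371 and 0.0795 for Pdxk, 0.304 and 0.127 for Pdxp).

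Among 14 genes known to regulate amino acid breakdown, 1 (7.14%) rose and 0 fell with edgeR, against 4.91% higher over all genes. There were 1 and 2 at an unadjusted p under 0.05, and 1 and 0 by both DESeq2 and limma-voom. A log2 fold change below 0 was found for 13 of 14 (median -0.16), against 7043 of all 13963 genes. The gene that rose was Cebpb, a transcription factor of the acute phase and of gluconeogenesis, from 67.3 and 76.1 CPM to 134.6 and 133.2 CPM (a log2 fold change of 0.90 ± 0.14 SE; edgeR adjusted p = 0.012). It was not past the threshold without extract replicate 1 (0.113) or extract replicate 2 (0.103). Hnf4a, a master regulator of hepatocyte genes, had a log2 fold change of -0.40 (edgeR adjusted p = 0.158). It was -0.34 without control replicate 1 and -0.46 without control replicate 2. Of 10 genes that respond to glucocorticoids, 1 (10%) fell and 0 rose with edgeR, against 3.63% lower over all genes. Limma-voom also called 1 lower and 0 higher, and DESeq2 2 lower and 1 higher. At an unadjusted p under 0.05, 3 were lower and 2 higher. Zbtb16, a zinc finger repressor induced by glucocorticoids in many cells, fell by 2.56 on the log2 scale (SE 0.18, edgeR adjusted p = 0.000696), and Per1, also a clock gene, had a log2 fold change of 1.40 (0.117). Per1 was at 2.18 without control replicate 1 and 0.91 without control replicate 2, so the control libraries set its size. DESeq2 also called Per1 (adjusted p = 0.00327). Of 14 amino acid transporters of the liver, 0 were past the threshold with edgeR or limma-voom. DESeq2 called 1 of 14 higher, against 1035 of 13963 over all genes. At an unadjusted p under 0.05, 1 was higher and 1 lower.

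Other groups of genes moved beside the enzymes. Over all genes tested, 4.91% were higher and 3.63% lower with edgeR. All 13 clock genes listed were past the threshold with edgeR, 8 higher and 5 lower, such as Per2 (log2 fold change 3.40) and Arntl (-2.42), and the summed level of the list was 309 to 320 CPM in control and 665 to 679 CPM in extract libraries. On the list of 10 hepatocyte markers, 4 were lower and 0 higher with edgeR (7 and 0 at an unadjusted p under 0.05, 6 and 0 by DESeq2, 4 and 0 by limma-voom), with a median of -0.56. Their summed level was 174224 and 180340 CPM in control and 115537 and 121113 CPM in extract libraries, and Alb itself had a log2 fold change of -0.58 (edgeR adjusted p = 0.0982, and 0.00129 by DESeq2). Of 9 Kupffer cell markers 8 were lower and 0 higher with edgeR (9 and 0 at an unadjusted p under 0.05, by DESeq2 and by limma-voom), and their sum went from 557.8 to 736.0 CPM in control to 68.9 to 69.2 CPM in extract libraries. None of these markers was at 0 in any library. Of 9 sinusoidal endothelial markers, 5 were lower and 1 higher with edgeR, and their summed level was 369.0 to 385.2 CPM in control and 287.2 to 316.2 CPM in extract libraries. The part of the clock, hepatocyte, Kupffer cell and endothelial differences in the values of the enzymes was not tested.

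Genes with a profile like that of an enzyme were sought for the 3 enzymes with the smallest p-values, as the smallest root mean square distance between centred log2(CPM + 0.5) profiles over the 4 libraries. The search covered tested protein-coding genes with a mean of at least 10 CPM, without predicted genes and the enzymes themselves. For Hal these were Ctss, Tyrobp and Slc22a26, at distances of 0.0285, 0.056 and 0.111. Ctss, the cathepsin S of antigen-presenting cells, was at 69.6 and 41.8 CPM in control and 14.9 and 14.1 CPM in extract libraries. For Agxt they were Abca8b, Khnyn and Elovl2, at 0.0198, 0.04 and 0.0421, and for Amt they were Rdh16f2, Egfr and Wsb1, at 0.0557, 0.0601 and 0.0706. The distances describe these 4 libraries only.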

How the data were processed

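Liver RNA of 2 control and 2 extract libraries was sequenced. CASAVA 1.8, HISAT2 2.1.0, HTSeq and the mm10 build are named per the submitters' processing notes, without roles, while for the annotation, strand setting and read length the sources used here say nothing. The authors deposited raw counts per gene symbol, not normalized. Each table closes with 5 rows that name no gene, which stayed out of library sizes and tests: reads with no unique place took 5.18% to 9.03% of records and reads on no feature 8.4% to 10.2%.

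Groups follow the sample titles. The count test was that of edgeR 4.0.16 under R 4.3.3 (filterByExpr, TMM scaling, robust quasi-likelihood F test, 2-sided), adjusted after Benjamini and Hochberg over 13963 genes, threshold 0.05. CPM use TMM-scaled library sizes, and the standard error is the log2 fold change over the square root of F. Exon lengths and overlaps come from GENCODE vM21, positions and promoters from RefSeq GRCm38.p6, and all 230 list genes found in the files matched a RefSeq position. On simulated data for this comparison, with 13963 genes, the edgeR step was tested and recovered 86%, 68%, 32% and 0% of 50 genes each changed 8-, 4-, 2- and 1.5-fold, and called 10 unchanged genes.

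The enzymes and the gene lists were chosen with earlier results of these data known. Named genes are all 10 enzymes, per list up to 4 genes of lowest p among those averaging 1 CPM or more, and up to 2 called against the direction of the list. Genes named outside that rule, such as Gcsh and Alb, were chosen after their values were seen. A gene that the rule takes is left out of the text. The alternatives were other scalings, DESeq2 1.42.0, limma-voom (limma 3.58.1), a fit with no robust step, low-count filters that were absent or strict, leaving out the 20 most abundant genes from the scaling, leaving out each library, and a replicate block.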

Additional observations from a re-analysis of the deposited data

How the results depend on the processing

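For the 10 enzymes, 14 alternatives gave 0 changes of direction. Among other named genes, Gcsh turned to 0.011 on the log2 scale under total count scaling. That scaling moved the median of all genes from -0.0047 to 0.16 and gave 940 genes higher and 338 lower (73.6% higher) where TMM gave 686 and 507 (57.5%), and 1 gene of the wider catabolic set was then higher. DESeq2 called 1035 genes higher and 919 lower over all genes, and 8 of the wider set lower. With each library left out in turn, where a lone library is assumed to vary like the other group, the enzymes called lower ranged from 2 to 7 and those called higher from 0 to 1, the wider set from 3 to 13 lower and from 0 to 2 higher, and all genes from 233 to 1826 higher and from 134 to 1782 lower. The cause was not tested.

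The shared replicate numbers come with no statement that they pair the libraries. Over 13963 genes the replicate differences of the 2 groups correlated at r = 0.202. The replicate block gave 6 enzymes lower and 1 higher, 7 genes of the wider set lower, and 902 genes higher and 682 lower over all genes, and it added Tat and Hpd to the 5 enzymes past the threshold, all of which it shared with the fit without the block. Aadat (edgeR adjusted p = 0.0325), Gls2 (0.0412) and Alb (0.0405) also passed with it.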
